A study of Mus musculus with 30 samples.

Results

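The 10 genes described here are the transcription factor genes *Cdx2*, *Gata3*, *Gata2*, *Tfap2c*, *Tead4*, *Eomes* and *Hand1*, the helix-loop-helix inhibitor gene *Id2*, and the keratin genes *Krt8* and *Krt18*, all used as markers or regulators of mouse trophectoderm. They were chosen by name from 55487 genes in the count files, and 9 of the 10 passed the filter on low counts in the fit of both stages, which tested 13415 genes. Their RNA was counted in 23 single mouse embryos from matings of *Dis3* het mice, which carry 1 null allele made with CRISPR/Cas9 by deleting exons 3 to 5. Of the 12 embryos taken at embryonic day 2.5 (E2.5), 6 were wild-type, 2 het and 4 null for both alleles, and the 11 taken at E2.75 comprised 3 wild-type, 5 het and 3 null embryos. Every embryo therefore came from a het mother, and the study's methods describe 2 knockout lines with different repair junctions without saying which line an embryo came from. The binding data are 4 lists of ChIP-seq peaks from an anti-mCherry precipitation in mouse embryonic stem cells (mESCs), collected 48 h after transfection with *Pou6f1-mCherry*. These cells were derived from *Dis3* flox/flox blastocysts and made the tagged protein from a CAG promoter, so the peaks are those of an added protein in stem cells and not of the embryo's own POU6F1.

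The trophectoderm is the outer epithelium of the blastocyst and gives rise to the fetal part of the placenta, while the inner cells give rise to the embryo proper. In outer cells of the morula, YAP1 enters the nucleus and acts with TEAD4 to switch on *Cdx2* and *Gata3*, and in inner cells the Hippo kinases keep YAP1 out. CDX2 represses the pluripotency programme in the outer cells, and KRT8 and KRT18 pair into the first intermediate filaments of the embryo. DIS3 is a ribonuclease of the RNA exosome, which degrades and trims RNA.

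Levels are given as CPM, the count of a gene scaled to a common library total, after TMM scaling, which sets libraries to a common scale by their bulk of genes. Total gene counts ranged from 1690192 to 14015980 per library, and E2.75 null replicates 1 and 2 were the only libraries under 2000000. Reads outside exons made up 32.3% to 43.9% of null libraries and 21.2% to 27.9% of het libraries, and the ERCC spike-in RNA made up 3.26% to 7.03% and 2.06% to 4.64% of them. In wild-type libraries these shares were 21% to 33.4% and 2.53% to 7.44%, and the part of either share in the results was not tested. *Dis3* lay at 0 to 21.5 CPM in the null, 30.4 to 59.2 CPM in the het and 18.0 to 147 CPM in the wild-type embryos. The library labelled wild-type replicate 6 at E2.5, at 18.0 CPM, fell inside the null range, and leaving it out changed the number of the 10 genes called in none of the 5 comparisons of genotypes or stages that use it, nor in the test of the difference between stage changes. With the stages combined, *Dis3* changed by -2.06 ± 0.53 (log2 fold change ± SE, edgeR adjusted p = 0.0253) in null against het embryos and by -3.01 ± 0.54 (adjusted p = 0.000943) in null against wild-type embryos. Each library is a whole embryo, so fewer cells of a type and less RNA per cell cannot be told apart.

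The genes differed widely in level when their CPM was divided by the length of their exons. In wild-type embryos *Tead4* and *Tfap2c* led, with medians over 9 embryos of 42.1 and 37.2 CPM per kb. *Krt8* and *Krt18* followed at medians of 28.6 and 25.6 CPM per kb, with ranges (4.08 to 95.2 and 1.62 to 64.5 CPM per kb) that overlapped those of the leading pair. *Cdx2*, *Hand1* and *Gata3* lay close together, at medians of 11.1, 10.6 and 8.44 CPM per kb, and *Id2* and *Eomes* were low, at 1.05 and 1.02 CPM per kb. In het embryos, of which 5 of 7 were taken at E2.75 against 3 of 9 wild-type embryos, the pooled order differed. *Krt18* and *Krt8* had medians of 75.7 and 75.2 CPM per kb, followed by *Gata3* at 55.0 CPM per kb. At E2.5 alone *Tead4*, *Krt8* and *Tfap2c* led in both genotypes. Their medians there were 44.8, 40.4 and 36.9 CPM per kb in 2 het embryos and 38.7, 37.2 and 34.9 CPM per kb in 6 wild-type embryos. In null embryos *Tfap2c* (50.9 CPM per kb) and *Tead4* (21.1 CPM per kb) led again. *Gata2*, which acts with *Gata3* in later trophoblast, had 1 count in E2.5 null replicate 1, 3 counts in E2.75 het replicate 5 and 0 counts in the other 21 libraries. A count of 0 over the 9 wild-type embryos allows up to 3 counts, or 0.0397 CPM over the group, so *Gata2* was not detectable in wild-type embryos at this depth.

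**Figure D1:**
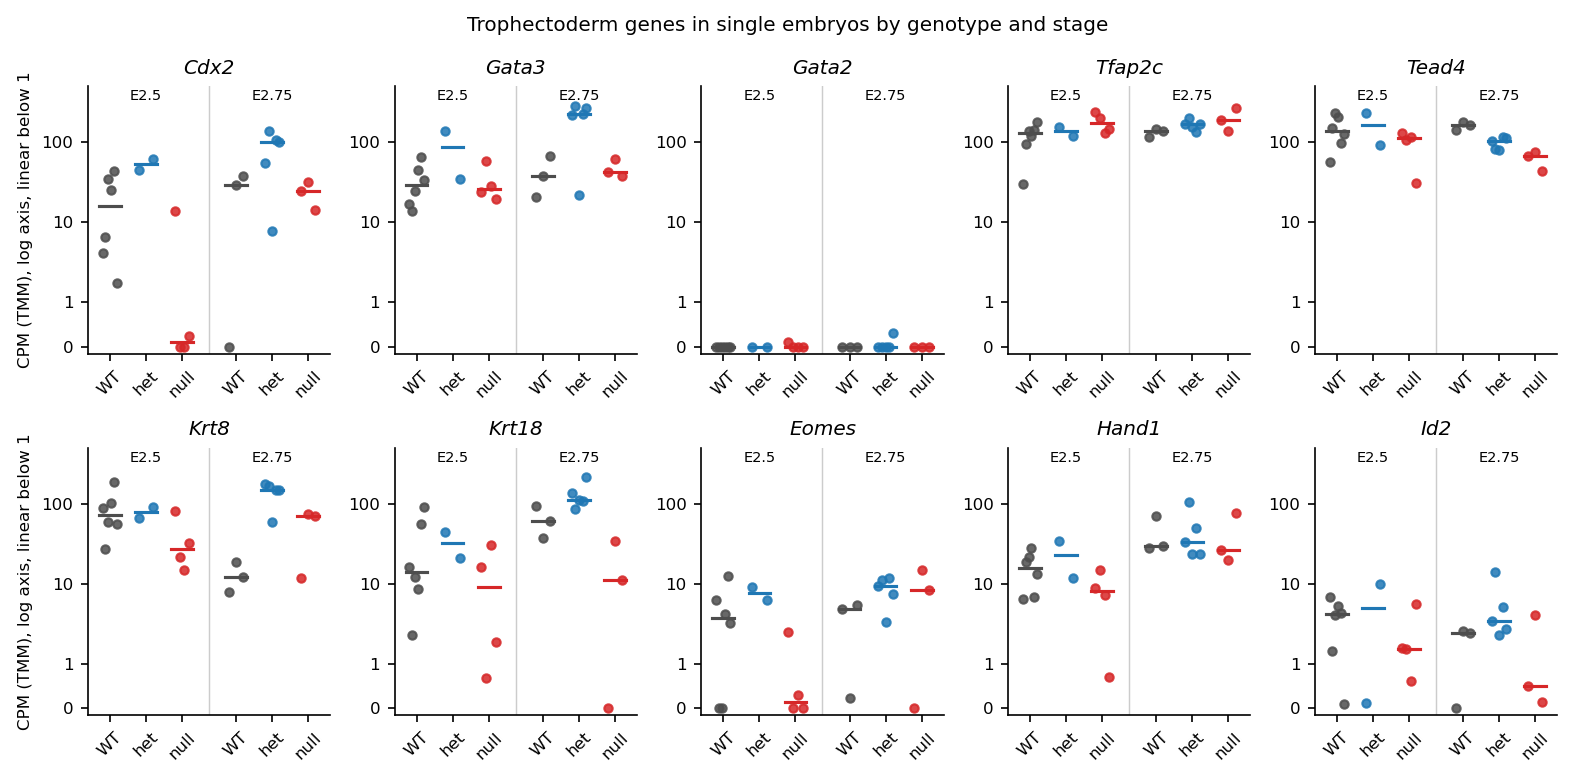
CPM of each trophectoderm gene (vertical axis, logarithmic above 1 and linear below) in the 23 embryos, by genotype and stage; a point is an embryo and a line is the group's median. The het embryos at E2.75 sit high for *Cdx2*, *Gata3*, *Krt8* and *Krt18*, apart from 1 embryo that is low for the first 3 of these, and *Gata2* is at or near 0 throughout.

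Null embryos had lower levels of *Gata3* and *Krt18* than het embryos. With the stages combined, *Gata3* was 4.34-fold and *Krt18* 7.75-fold lower, and these 2 of the 9 genes tested fell past the threshold (an adjusted p under 0.1 and a change beyond 2-fold, that is 1 on the log2 scale), beside 5.73% of all genes tested called in either direction and 2.06% called lower. *Cdx2*, *Krt8*, *Id2*, *Eomes*, *Hand1* and *Tead4* had negative changes that did not pass, and *Tfap2c* had a small positive one, which turned negative (-0.89) when libraries were scaled to the spike-ins. The median change of the 9 genes was -1.42 on the log2 scale, beside 0.02 over all genes tested. Scaling to the ERCC spike-ins moved the median of all genes in this comparison to -1.08, and under that scaling 7 of the 9 genes were called lower, while all genes split into 289 higher and 4487 lower instead of 493 and 276. DESeq2, whose median over all genes was 0.18, called *Cdx2*, *Gata3*, *Krt8* and *Krt18* lower. The share of all genes that DESeq2 called in this comparison is not given here, so these calls have no background beside them.

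The picture differed against wild-type embryos, where 0 of the 9 genes were called with the stages combined, beside 5.25% of all genes tested. edgeR gave an unadjusted p under 0.05 for 3 of the 9 genes, beside 15.1% of all genes. DESeq2 called 0 of the 9, and its share of all genes in this comparison is not given here. The median change of the 9 genes was -0.50, beside -0.02 over all genes. The nearest to the threshold were *Tead4*, at -0.87 ± 0.31 (adjusted p = 0.123), *Tfap2c*, at 0.61 ± 0.25 (adjusted p = 0.206), and *Krt18*, at -1.65 ± 0.74 (adjusted p = 0.278). *Gata3*, called in null against het embryos, stood at 0.11 ± 0.43 against wild-type embryos (adjusted p = 0.959), a direction that turned negative (-0.25) with spike-in scaling. Both comparisons use the same null embryos.

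**Figure D2:**
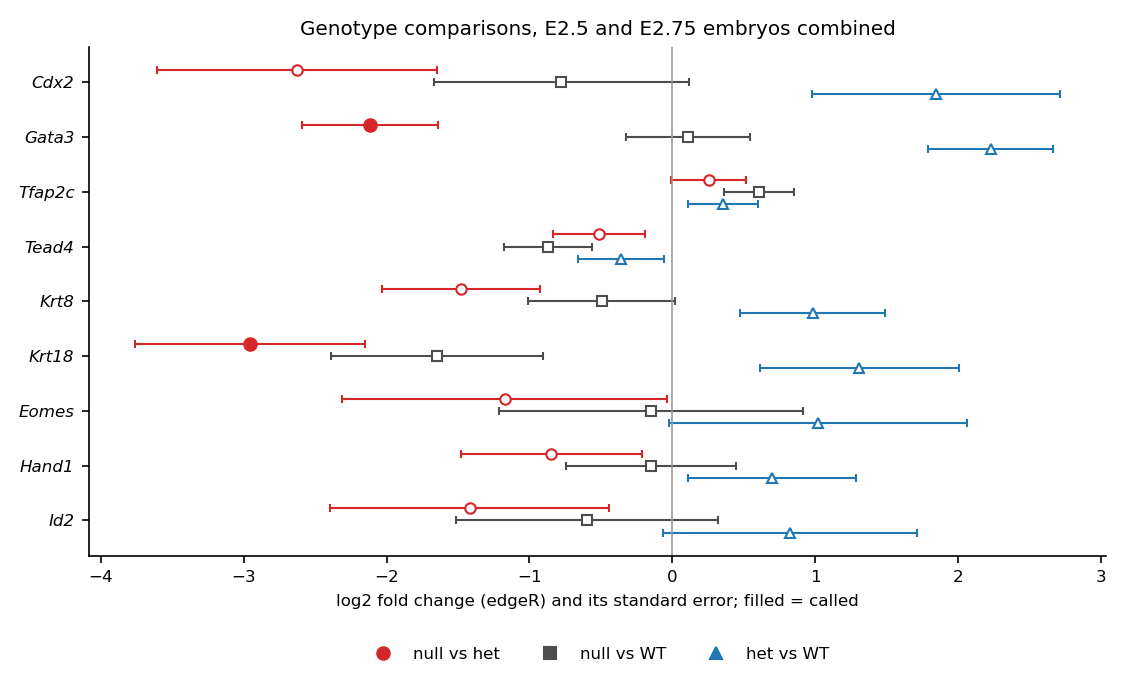
Log2 fold change from edgeR (horizontal axis) with its standard error for 9 genes in 3 genotype comparisons over both stages; filled symbols passed the threshold. *Gata3* and *Krt18* are filled in null against het, and no symbol is filled in the comparisons with wild-type embryos, where the het values lie to the right of 0 for all but *Tead4*.

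*Tead4* encodes the DNA-binding partner of YAP1 and stands at the head of the programme. The gene lies on the minus strand of chr6:128224288-128300823. At E2.75 it was lower in null embryos than in wild-type embryos by 2.67-fold (-1.42 ± 0.30, adjusted p = 0.0270). The 3 null embryos had 66.5, 75.9 and 43.9 CPM and the 3 wild-type embryos 140, 176 and 165 CPM. The 5 het embryos lay between, at 103, 81.7, 78.7, 117 and 113 CPM, so that the 3 genotypes did not overlap at this stage. All null embryos lay below all het embryos for 6.47% of the genes tested and below all wild-type embryos for 11.1%, and all het embryos lay below all wild-type embryos for 3.27%. The change against wild-type embryos kept its direction in each fit that left out 1 embryo, and its adjusted p was 0.101 without null replicate 3 and at most 0.0842 without any other embryo. The change against het embryos, -0.70 ± 0.27, did not pass (adjusted p = 0.189).

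At E2.5 the genotypes overlapped for *Tead4*. The 4 null embryos had 131, 106, 116 and 30.8 CPM, the 2 het embryos 231 and 91.7 CPM, and the 6 wild-type embryos ranged from 55.9 to 228 CPM with a median of 139 CPM. Null replicate 4 was far below the other null embryos. The E2.5 change against wild-type embryos was -0.61 ± 0.45 (adjusted p = 0.596). The test of the difference between stages, -0.81 ± 0.59 (adjusted p = 0.664), did not pass.

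*Cdx2*, the gene of the caudal-type homeobox factor that defines the trophectoderm, was near 0 in most null embryos at E2.5. The gene lies on the minus strand of chr5:147300805-147307270. Null replicates 2 and 3 had 0 counts, which at their depths allow up to 0.510 and 0.916 CPM, null replicate 4 had 1 count (0.235 CPM), and null replicate 1 had 13.9 CPM. The 2 het embryos had 45.2 and 60.9 CPM, above all 4 null embryos. All null embryos lay below all het embryos at E2.5 for 10.2% of the genes tested. The 6 wild-type embryos ranged from 1.75 to 43.8 CPM, with a median of 15.8 CPM, so that they overlapped the null embryos and lay below both het embryos, a separation seen for 3.09% of the genes tested. The E2.5 changes, -3.89 ± 1.57 against het (adjusted p = 0.515) and -2.38 ± 1.31 against wild-type (adjusted p = 0.423), did not pass. At E2.5 edgeR called 0 of the 9 genes in null against het, in null against wild-type and in het against wild-type embryos. The shares of all genes tested were 0.0126%, 1.82% and 0%. At an unadjusted p under 0.05 edgeR gave 2, 1 and 1 of the 9, beside 9.26%, 15.0% and 3.16% of all genes. DESeq2 also called 0 of the 9 in each. Over all genes it called 449 higher in null against het, with the number lower not given here. It called 781 higher and 479 lower in null against wild-type, and 5 higher and 16 lower in het against wild-type embryos.

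At E2.75 *Cdx2* was detected in every null embryo, at 24.2, 31.8 and 14.4 CPM. The wild-type embryos had 0, 29.3 and 37.8 CPM, and the null values lay between the first of these and the other 2. The het embryos had 54.5, 138, 7.80, 106 and 100 CPM, and 4 of the 5 exceeded every null and wild-type embryo. With both stages combined, the change of null against het was -2.63 ± 0.98 (adjusted p = 0.141), and all 7 null embryos lay below the het median of 60.9 CPM. The change passed the threshold in 4 of 8 alternatives, and the highest adjusted p among the 8 was 0.340. It passed with DESeq2 (adjusted p = 0.0937), without the filter on low counts (adjusted p = 0.0969) and with ERCC scaling (-3.38, adjusted p = 0.0336). It also passed without the 2 libraries under 2000000 counts (-3.68, adjusted p = 0.0827). Of the 14 fits that left out 1 null or het embryo, 13 did not call it (adjusted p 0.0986 to 0.217 over the 14). An exact two-sided permutation test that exchanged genotypes within stages gave p = 0.0143 for null against het and a difference of -3.28 in mean log2 CPM. Such tests were run on 10 genes in each of 2 comparisons, null against het and null against wild-type, and each was repeated with ERCC scaling and with genotypes exchanged over all embryos; the p-values are not adjusted. The smallest p that the 840 assignments of null and het embryos can give is 0.00119.

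*Gata3*, which acts in parallel with *Cdx2* downstream of TEAD4, had the lowest adjusted p of the 9 genes between null and het embryos. The gene lies on the minus strand of chr2:9857078-9890034 (GRCm38) and shares up to 155 exon bases with annotated non-coding genes. Reads in shared bases cannot be told apart, since counting ignored strand and the overlapping *9230102O04Rik* is on the same strand. The null embryos were even for *Gata3*, from 19.3 to 62.1 CPM over both stages with a median of 37.9 CPM. At E2.75 the het embryos had 219, 284, 21.7, 221 and 267 CPM, so that 4 of them were far above the 3 null embryos (42.9, 62.1 and 37.9 CPM) and replicate 3 was below them. The E2.75 wild-type embryos, at 20.8, 37.2 and 67.7 CPM, spanned the null range. The E2.5 het embryos had 138 and 34.2 CPM, the null embryos 24.0, 58.6, 28.4 and 19.3 CPM, and the wild-type embryos 13.9 to 64.9 CPM with a median of 29.1 CPM. Over both stages the change of null against het was -2.12 ± 0.48 (adjusted p = 0.00942), and it stayed past the threshold in the 14 fits that left out 1 null or het embryo (adjusted p 0.00278 to 0.0263). At E2.75 alone the change was -2.13 ± 0.62 (adjusted p = 0.0859, beside 4.82% of all genes called in either direction and 2.31% called lower). That call was lost on leaving out any embryo other than het replicate 3 (adjusted p 0.125 to 0.252), and without het replicate 3 the change was -2.43 (adjusted p = 0.00738).

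The keratin genes *Krt8* and *Krt18*, whose products form one filament, differed in which comparisons called them. They are neighbours, *Krt8* on the minus strand of chr15:101996698-102004482 and *Krt18* on the plus strand of chr15:102028180-102032027. *Krt8* shares 101 exon bases with *Gm36026* on the other strand, where reads cannot be told apart. *Krt18* at E2.75 was lower in every null embryo than in every het and wild-type embryo. Such a separation from het embryos was seen for 6.47% of the genes tested, and from wild-type embryos for 11.1%. The null embryos had 0, 33.9 and 11.1 CPM, where 0 counts allow up to 1.48 CPM in the first. The het embryos had 135, 86.5, 110, 109 and 215 CPM and the wild-type embryos 92.7, 36.8 and 60.7 CPM. The change against het was -3.20 ± 0.77 (adjusted p = 0.0383) and was not called without null replicate 3 (-3.01, adjusted p = 0.148). The change against wild-type, -2.16 ± 0.78, did not pass in edgeR (adjusted p = 0.156), while DESeq2, and edgeR without the filter on low counts, called *Krt18* lower. Over all genes DESeq2 called 1160 higher and 834 lower there, beside 316 and 340 in the main edgeR fit. At E2.5 the groups overlapped, with null embryos at 16.1, 0.680, 30.2 and 1.88 CPM, het embryos at 43.7 and 20.9 CPM, and wild-type embryos from 2.32 to 90.4 CPM with a median of 14.1 CPM. Over both stages the change of null against het was -2.95 ± 0.80 (adjusted p = 0.0352), and it stayed called in each of the 14 fits without 1 embryo (adjusted p 0.0254 to 0.0796). The exact permutation test gave p = 0.00238 for *Krt18* in null against het embryos.

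*Krt8* was the 1 gene of the 9 that passed in the comparison of stages, and it did so in wild-type embryos. The 6 wild-type embryos at E2.5 ranged from 26.7 to 186 CPM, with a median of 72.8 CPM. At E2.75 the 3 wild-type embryos had 7.99, 18.6 and 12.3 CPM, below every one at E2.5, as were 8.30% of the genes tested. The change from E2.5 to E2.75 was -2.73 ± 0.65 (adjusted p = 0.0144), beside 7.38% of all genes called in either direction and 3.64% called lower. It stayed called in the 9 fits that left out 1 wild-type embryo (adjusted p 0.00977 to 0.0868) and with spike-in scaling (-1.72, adjusted p = 0.0988). *Krt18* stood at 1.03 ± 0.91 (adjusted p = 0.576).

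In null embryos *Krt8* was not called between stages, and het embryos, with 2 at E2.5, were not compared between stages. The 4 null embryos of the earlier stage had 81.2, 21.8, 15.0 and 32.0 CPM and the 3 of the later stage 11.8, 74.4 and 70.5 CPM, a change of 0.46 ± 0.60 (adjusted p = 0.780). Het embryos of the earlier stage had 66.6 and 91.5 CPM, and those of the later stage 176, 167, 59.3, 149 and 147 CPM, where each lay above each wild-type embryo. All het embryos lay above all wild-type embryos at E2.75 for 4.18% of the genes tested. At E2.75 *Krt8* was 3.84-fold higher in null than in wild-type embryos (1.94 ± 0.56, adjusted p = 0.0887, beside 4.54% of all genes called), although null replicate 1 lay inside the wild-type range. This call was lost on leaving out any embryo other than null replicate 1 (adjusted p 0.116 to 0.233), with spike-in scaling (1.67, adjusted p = 0.159), and was 2.38 (adjusted p = 0.0222) without null replicate 1. The test of whether the stage change differed between null and wild-type embryos gave 3.19 ± 0.86 for *Krt8*, with an unadjusted p of 0.000998 and an adjusted p of 0.289, so it did not pass. edgeR called 0 of the 9 genes and 0% of all genes in this test, with 1 of the 9 and 2046 of all (11%) at an unadjusted p under 0.05. DESeq2 called *Krt8* in this test, and 220 genes higher and 124 lower over all.

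**Figure D3:**
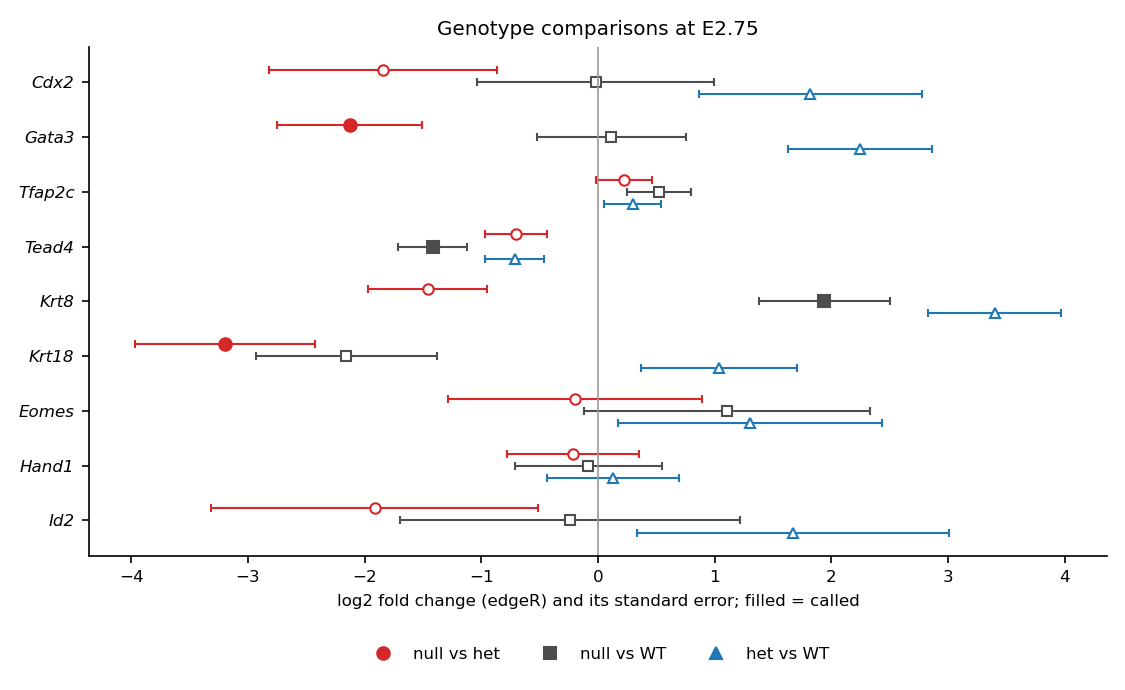
Log2 fold change from edgeR (horizontal axis) with its standard error at E2.75 for 9 genes in 3 genotype comparisons; filled symbols passed the threshold. *Krt8* is below het and above wild-type in null embryos, while *Tead4* and *Krt18* are below both.

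*Tfap2c*, which encodes the AP-2 gamma factor of both early trophectoderm and trophoblast stem cells, was detected in every embryo and was not called in any comparison. It ranged from 131 to 262 CPM in null, 119 to 197 CPM in het and 29.6 to 180 CPM in wild-type embryos, and wild-type replicate 1 at E2.5 gave the low value. The exact permutation test gave p = 0.0329 for null against wild-type, with a difference of 0.67 in mean log2 CPM, but with ERCC scaling the difference was 0.24 and the exact permutation p was 0.719. *Eomes*, a T-box gene of trophoblast stem cells, was sparse, with 0 counts in 3 of 7 null and 2 of 9 wild-type embryos and 3.32 to 11.9 CPM in the 7 het embryos. Its 4 null embryos at E2.5 had 2.50, 0, 0.305 and 0 CPM, all below the het embryos (9.09 and 6.22 CPM), as for *Cdx2* and 10.2% of the genes tested. At E2.75, 2 of the 3 null embryos had 14.9 and 8.44 CPM of *Eomes*. Its change over both stages was -1.17 ± 1.14 in null against het (adjusted p = 0.654). *Eomes* shares 118 exon bases with *Gm33460* on the other strand, where reads cannot be told apart.

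*Hand1* and *Id2* had wide ranges within each genotype. *Hand1*, a basic helix-loop-helix gene of later giant cells, ranged from 0.705 to 76.8 CPM in null, 11.8 to 104 CPM in het and 6.53 to 69.2 CPM in wild-type embryos. Its 3 null embryos at E2.75 (26.1, 20.0 and 76.8 CPM) all lay above the 4 at E2.5 (8.84, 14.8, 7.33 and 0.705 CPM), as did 7.1% of the genes tested. This stage change in null embryos, 2.36 ± 0.74, had an adjusted p of 0.104, just outside the threshold, beside 3.0% of all genes called. edgeR called 0 of the 9 genes between stages in null embryos (2, beside 16.4% of all genes, at an unadjusted p under 0.05), and DESeq2 called *Hand1*, higher at E2.75. *Id2* lay at 0.138 to 5.64 CPM in null, 0.123 to 14.2 CPM in het and 0 to 6.86 CPM in wild-type embryos.

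The comparison of het with wild-type embryos gave mostly positive changes that did not pass. The change was positive for 8 of the 9 genes with the stages combined, with a median of 0.98 beside -0.03 over all genes, and *Tead4* was the exception (-0.36 ± 0.30), which became positive (0.34) with spike-in scaling. The edgeR test called 0 of the 9 genes and 0% of all genes, with 2 of the 9 genes and 934 genes of all (6.96%) at an unadjusted p under 0.05, and DESeq2 called *Gata3* among 37 higher and 28 lower genes. *Gata3* had the largest change of the 9, at 2.23 ± 0.44 (unadjusted p = 2.12e-05, adjusted p = 0.148), and it passed without E2.5 het replicate 2, E2.75 het replicate 3 or E2.75 wild-type replicate 3 (adjusted p = 0.0488, 0.0194 and 0.0903). *Cdx2* stood at 1.85 ± 0.87 (adjusted p = 0.704) and *Krt8* at 0.98 ± 0.51 (adjusted p = 0.711). At E2.75 *Krt8* was 10.6-fold higher in het than in wild-type embryos (3.4 ± 0.57, unadjusted p = 2.26e-05), yet its adjusted p was 0.304. edgeR called 0 of the 9 genes and 0% of all genes in this comparison at E2.75 (3 of the 9, beside 9.46% of all genes, at an unadjusted p under 0.05), while DESeq2 called *Gata3* and *Krt8* higher. Over all genes DESeq2 called 217 higher and 124 lower at E2.75. With the stages combined, spike-in scaling moved the median of all genes to 0.71 in het against wild-type and to -0.37 in null against wild-type.

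One het embryo at E2.75 departed from the other 4. Replicate 3 was the lowest of the 5 for 7 of the 9 detected genes, *Cdx2*, *Gata3*, *Tead4*, *Krt8*, *Eomes*, *Hand1* and *Id2*, and had neither the lowest *Krt18* nor the lowest *Tfap2c*. Its *Cdx2* was 7.80 CPM beside 54.5 to 138 CPM in the others, and its *Gata3* 21.7 CPM beside 219 to 284 CPM. Its library was among the deeper ones, at 10638660 counts, with 23.1% of reads outside exons and *Dis3* at 49.6 CPM, within the het range. Summed per kb of exon over the 10 genes, the het embryos spanned 166 to 428 CPM per kb (median 353), the wild-type embryos 92.7 to 243 (median 181) and the null embryos 73.7 to 184 (median 118). These sums pool the stages, and 5 of 7 het, 3 of 9 wild-type and 3 of 7 null embryos were from E2.75. Among wild-type embryos at E2.75, replicate 1 was the lowest for 7 of the 9 genes and the highest for *Krt18*.

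**Figure D4:**
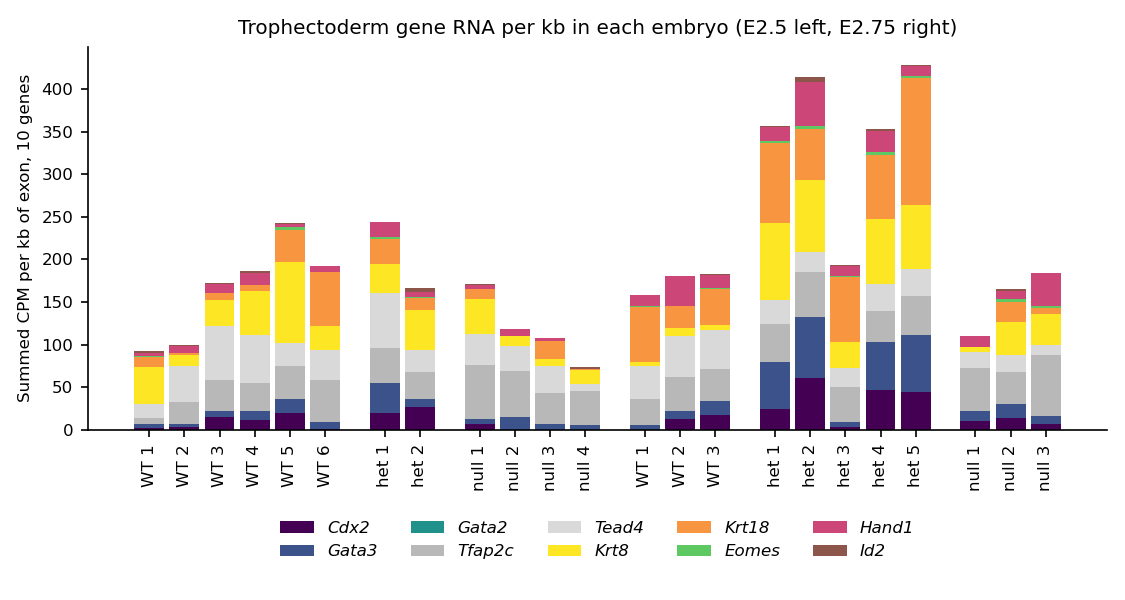
CPM per kb of exon of the 10 genes, stacked, for each embryo by genotype and stage. The 4 tall het bars at E2.75 stand beside a short 1 for het replicate 3, and the null bars hold little *Krt18* and *Cdx2*. Null and wild-type bars both hold little *Gata3*, with medians of 9.54 and 8.44 CPM per kb.

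The wider programme was read from lists of its regulators, of further trophectoderm genes and of other cell types. Of 18 genes for upstream regulators, 15 were tested and 2 fell in null embryos against het and also against wild-type embryos, beside 2.06% and 1.59% of all genes tested called lower. *Stk3*, a Hippo kinase gene, changed by -1.50 ± 0.42 against het (adjusted p = 0.0420) and -1.83 ± 0.41 against wild-type (adjusted p = 0.00797). *Amot*, whose product holds YAP1 at the membrane, changed by -1.43 ± 0.36 (adjusted p = 0.0208) and -1.17 ± 0.34 (adjusted p = 0.0516). *Yap1* itself stood at -0.58 ± 0.30 against het (adjusted p = 0.321). The median over this list was -0.09 in null against het, close to the 0.02 of all genes.

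Of 24 further trophectoderm genes, 20 were tested, and the changes of 18 were negative in null against het with a median of -1.15. Of these 20, 1 was called, the endocytic receptor gene *Lrp2* (-3.17 ± 1.00, adjusted p = 0.0762), beside 5.73% of all genes called in either direction. *Lrp2* ranged from 0.305 to 60.5 CPM in null and 0.928 to 254 CPM in het embryos. Against wild-type embryos the median was -0.20 and 1 gene was called, the Wnt ligand gene *Wnt7b*, higher (adjusted p = 0.0337), beside 5.25% of all genes called in either direction. It had 20 counts over 7 null embryos, 4 of them at 0, and 1 count over 9 wild-type embryos, a ratio per counted read of 45.2 with an exact 95% interval of 7.23 to 1.87e+03 that covers counting error only. In het against wild-type 18 of the 20 changes were positive, with a median of 0.58. Of 12 inner cell mass and epiblast genes, 12 were tested, with medians of -0.15 in null against het and -0.13 in null against wild-type. At an unadjusted p under 0.05 there were 3 against het and 2 against wild-type, beside 17.3% and 15.1% of all genes tested. edgeR called 0 of the 12 in either comparison of null embryos with the stages combined, beside 5.73% and 5.25% of all genes. *Klf2* against wild-type (0.88 ± 0.25, adjusted p = 0.0440) and *Zfp42* against het (-0.78 ± 0.26, adjusted p = 0.0919) passed on adjusted p but not on the size of the change. Neither the 3 primitive endoderm nor the 8 oocyte genes tested held a called gene in these comparisons. Cumulus cells, which surround the egg and were removed with hyaluronidase, left little trace, since 5 to 7 of their 10 marker genes had 0 counts in a genotype and their summed level was 21.9 to 69.3 CPM in null, 8.44 to 39.7 CPM in het and 12.9 to 38.0 CPM in wild-type embryos; the part of such cells in the results was not tested.

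*Pou6f1*, the gene of the factor in the ChIP-seq, lay at 17.7 to 78.4 CPM in null, 7.99 to 34.9 CPM in het and 3.34 to 55.2 CPM in wild-type embryos, and its change was 1.38 ± 0.54 against het (adjusted p = 0.169) and 1.13 ± 0.50 against wild-type (adjusted p = 0.266). The peak lists bear on whether the tagged factor was found near the trophectoderm genes. Each of 2 replicates came with 2 lists, called against different controls that the lists do not name, here list 1 (82694 and 24524 peaks) and list 2 (31348 and 3630 peaks). A legend in the paper numbers its peak sets 1 and 2 in each replicate. There the control of set 1 is IgG in *Pou6f1-mCherry* cells, and that of set 2 is the mCherry precipitation from cells given *mCherry* alone. The lists do not state that their numbers follow this legend. A peak lay within 5 kb of 10, 10, 8 and 1 of the 10 genes in replicate 1 list 1, replicate 1 list 2, replicate 2 list 1 and replicate 2 list 2. The shares of all genes tested were 87.8%, 82.6%, 75.5% and 28.4%, so that the first 3 counts are near those of genes at large and the last is lower. In both replicates of list 1, overlapping peaks lay near 8 of the 10 genes (all but *Tead4* and *Krt18*), beside 72.1% of all genes, and in both replicates of list 2 near *Id2*, beside 28.0%. No read depth comes with these lists, so counting error is unknown.

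**Figure D5:**
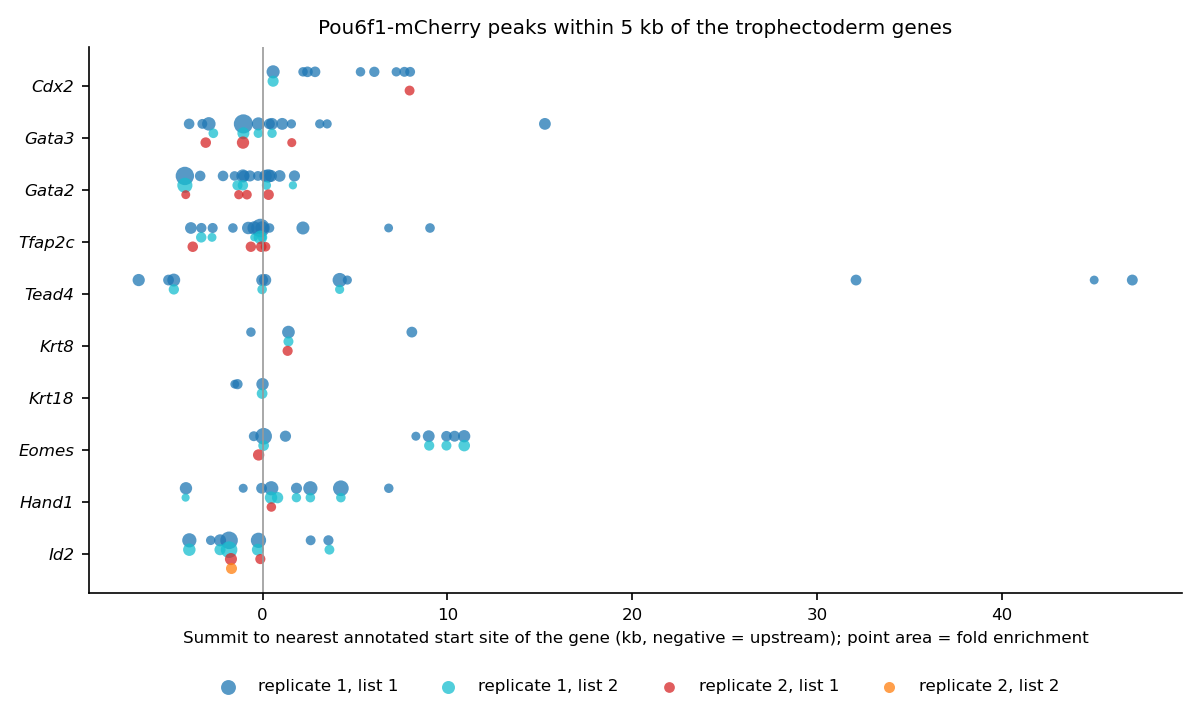
Distance in kb from each peak summit to the nearest annotated start site of the gene (horizontal axis, negative upstream) for the 10 genes and 4 peak lists; the area of a point is the fold enrichment over control. Only peaks within 5 kb of a gene were kept, so nearness to its start sites follows in part from that choice. Points far to the right lie within or past the gene body, and replicate 2 has 0 points for *Tead4* and *Krt18*.

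Peaks of replicate 1 list 1 were numerous, at 3 to 13 per gene. The strongest lay in *Gata3* (16.8-fold over control), upstream of *Tfap2c* (15.9-fold, 117 bases from a start site), upstream of *Gata2* (15.6-fold, 4208 bases) and upstream of *Id2* (14.2-fold, 1815 bases). These exceeded 93.1% to 94.8% of the peaks in their list. *Gata2*, near 0 in the embryos, was among these 4 genes. The start site nearest to its peak was that of *Gm38708*, at 998 bases. A start-site peak of *Krt18* (7.1-fold, 4 bases from the start site) had no counterpart in replicate 2. *Tead4* had its strongest peak 4173 bases downstream of a start site, in an intron, at 9.35-fold. A start site of *Gm21893* lay nearer to that peak, at 2463 bases. In replicate 2 list 1 the highest were *Gata3* (7.0-fold), *Id2* (6.73-fold), *Eomes* (5.94-fold) and *Gata2* (5.2-fold). *Cdx2* had a peak 569 bases downstream of its start site in replicate 1 (7.97-fold), and its sole peak in both replicates lay 7955 bases downstream of the start site, past the end of the gene, at 4.53-fold. With a -log10 q of at least 10, the number of genes with a peak was 8, 4, 0 and 0 in the 4 lists, beside 75.5%, 59.2%, 33.6% and 9.18% of all genes.

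The sequences of 200 bases around the replicate 2 summits are shown for the member genes whose peak lay in both replicates with the highest enrichment, to let the bound stretch be read. *Eomes*, which ranked between *Id2* and *Gata2*, is left out because its window covers transcript ends. *Cdx2* was added after its values were seen. All are from GRCm38 and are written 5′ to 3′ on the strand of the gene. *Gata3* is on the minus strand of chr2:9879561-9879760, in an intron and 1061 bases upstream of the nearest of its start sites. *Id2* is on the minus strand of chr12:25098753-25098952, 1713 bases upstream of its nearest start site. *Gata2* is on the plus strand of chr6:88194113-88194312, in an intron 322 bases downstream of a start site, and *Cdx2* is on the minus strand of chr5:147299215-147299414, downstream of the gene. The peaks at the *Gata2* and *Cdx2* windows overlapped no list 2 peak. The peak at the *Gata3* window overlapped a list 2 peak in replicate 1, and the peak at the *Id2* window did so in both replicates. Capitals mark the letters GGGCGG (the GC box) and CCAAT, or their reverse complements.
Gata3: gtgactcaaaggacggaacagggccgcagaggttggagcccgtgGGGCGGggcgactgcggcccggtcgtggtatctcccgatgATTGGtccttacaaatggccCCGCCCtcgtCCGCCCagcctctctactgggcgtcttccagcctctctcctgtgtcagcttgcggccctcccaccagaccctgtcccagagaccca
Id2: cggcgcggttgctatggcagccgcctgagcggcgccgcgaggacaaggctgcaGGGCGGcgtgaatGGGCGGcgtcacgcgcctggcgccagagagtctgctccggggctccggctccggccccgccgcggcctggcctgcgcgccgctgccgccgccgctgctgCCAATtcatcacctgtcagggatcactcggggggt
Gata2: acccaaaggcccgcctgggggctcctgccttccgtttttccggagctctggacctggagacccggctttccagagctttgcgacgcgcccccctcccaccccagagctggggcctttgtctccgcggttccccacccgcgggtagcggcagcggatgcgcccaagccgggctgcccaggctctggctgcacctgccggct
Cdx2: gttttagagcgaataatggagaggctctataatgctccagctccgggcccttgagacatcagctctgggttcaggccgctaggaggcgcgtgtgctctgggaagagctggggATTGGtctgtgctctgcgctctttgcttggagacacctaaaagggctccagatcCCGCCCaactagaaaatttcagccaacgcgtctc

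The *Gata3* window held 3 GC boxes and 1 CCAAT, the *Id2* window 2 and 1, the *Cdx2* window 1 and 1, and the *Gata2* window 0 of either. Among the 17675 windows made the same way at peaks shared by both replicates, 53.6% held a GC box and 23.3% a CCAAT. The POU octamer ATGCAAAT and the homeodomain core TAATNA were searched on both strands as well. None of the 4 windows held either, and 0.764% and 4.66% of all windows did. The GC content was 66.0% for *Gata3*, 75.5% for *Id2*, 71.0% for *Gata2* and 55.5% for *Cdx2*, beside a median of 64.5% over all windows. These matches are letters in the reference and do not say which protein was bound.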

How the data were processed

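The authors made one count file per embryo. Reads from polyadenylated RNA with ERCC spike-ins were trimmed with cutadapt 3.4, aligned to GRCm38 with STAR 2.7.8a and counted per gene with HTSeq 0.11.4, ignoring strand, and the deposited values are raw counts. For ChIP-seq, the authors aligned reads with Bowtie2 2.4.4 and called peaks with MACS2 2.2.7.1. In the deposited peak lists the score is 10 times the -log10 q, the enrichment is a fold (ratio) over control, and p and q are given as -log10.

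Counts were fitted across all genes with edgeR 4.0.16 (TMM, filterByExpr, quasi-likelihood test, Benjamini-Hochberg adjustment) in R 4.3.3, and a gene was called where the adjusted p was below 0.1 and the change exceeded 1 on the log2 scale. Genotypes were compared over both stages together without a stage term, as the main design, and within each stage. Exact permutation tests used log2 CPM with a prior count of 2. Alternatives were DESeq2 1.42.0, its size factors, no filter, ERCC scaling, stage as a covariate, the replicate number as a block, 2 genotypes only, and leaving out single embryos or the libraries under 2000000 counts, the last chosen after seeing the data. The fits were tested on simulated data. The 38 pairs of embryos of one condition each differed beyond sampling noise. Nothing in the labels gives litters, so p-values measure the spread between these embryos. Intervals and count floors cover counting error only.

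Peaks within 5 kb of a GENCODE gene were assigned to it, and windows of 200 bases around summits were read from RefSeq's GRCm38.p6 sequence. The 10 genes and the gene lists were chosen with earlier results of these data known. The genes named with full values are those 10, *Dis3*, *Pou6f1* and list genes that passed the threshold. *Klf2* and *Zfp42*, which passed on adjusted p alone, and *Yap1*, which did not pass, are named as well.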

Additional observations from a re-analysis of the deposited data

Results flagged for a closer look

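In 7 of 29 sets of 4 to 6 embryos of one condition, the highest or lowest embryo stood apart by the ratio of its gap from the nearest embryo to the whole range; about 1 in 20 would do so by chance. For *Cdx2* at E2.5, null replicate 1 was high (13.9 CPM, ratio 0.84). For *Tead4*, E2.5 null replicate 4 was low (30.8 CPM, ratio 0.857). For *Tfap2c*, E2.5 wild-type replicate 1 was low (29.6 CPM, ratio 0.646). E2.75 het replicate 3 was low for both *Gata3* (21.7 CPM, ratio 0.899) and *Krt8* (59.3 CPM, ratio 0.838). *Gata2* had a ratio of 1 in E2.5 null replicate 1 and of 1 in E2.75 het replicate 5, since each was the sole embryo of its condition above 0, on 1 and 3 counts.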

How the results depend on the processing

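Counts of the 9 genes called changed by more than 1.5 times, or to or from 0, as follows. In null against het with the stages combined (2 called), DESeq2 and no filter gave 4, ERCC scaling 7 and the replicate block 0, where *Gata3* had an adjusted p of 0.217 and *Krt18* of 0.10. At E2.75 (2) no filter and ERCC scaling gave 4 and the block 0, and at E2.5 (0) ERCC scaling gave 4. Counts over all genes moved too. In null against het, ERCC scaling called 4487 genes lower with the stages combined (276 in the main fit), 2164 at E2.75 (333) and 1916 at E2.5 (2). The block called 116 genes lower with the stages combined and 52 at E2.75. In null against wild-type, ERCC scaling gave 1 with the stages combined (0), and ERCC scaling and the block each gave 1 at E2.75 (2). Over all genes at E2.75 the block called 102 higher (316 in the main fit) and 104 lower (340). Rises from 2 to 3 came with DESeq2 in null against het at E2.75, with DESeq2 and no filter in null against wild-type at E2.75 (adding *Krt18*), and in null against het combined with the 2 genotypes only or without the libraries under 2000000 counts. In het against wild-type, DESeq2 gave 1 combined (0), and DESeq2 gave 2 and no filter 3 at E2.75 (0). Over all genes, where the main fit called 0, DESeq2 called 37 higher and 28 lower combined, and 217 higher and 124 lower at E2.75. Between stages, ERCC scaling gave 2 in wild-type embryos (1), and in null embryos (0) no filter gave 2 and DESeq2, its size factors and ERCC scaling 1 each. Over all genes, ERCC scaling called 3218 higher at E2.75 in wild-type embryos (698 in the main fit) and 1969 in null embryos (231). DESeq2 and no filter gave 1 for the difference of stage changes (0). At an unadjusted p under 0.05 the permutation test passed for 5 of 10 genes in null against het and 2 of 10 in null against wild-type. With ERCC scaling 8 passed in null against het, where that scaling moved the median of all genes to -1.08. The permutation test was not run over all genes, so no share of all genes stands beside these counts. A -log10 q of at least 10 left 4 of 10 genes with peaks in replicate 1 list 2, 0 of 8 in replicate 2 list 1 and 0 of 1 in replicate 2 list 2, where a distance of 1 kb from a start site also left 0.

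Directions reversed under ERCC scaling for *Tfap2c* in null against het (-0.89), *Gata3* (-0.25) and *Eomes* (0.20) in null against wild-type, and *Tead4* in het against wild-type (0.34). *Gata3* in null against wild-type was -0.16 without the libraries under 2000000 counts, and *Krt8* was 0.16 with the block. The replicate numbers did not pair the embryos, since 0 of 17 same-numbered pairs correlated above 0.1 (-0.106 to 0.0858). Leaving out single embryos gave 0 to 1 called genes in null against wild-type combined and at E2.5, in het against wild-type combined, and between stages in null embryos. It gave 0 to 3 in null against het at E2.75, and 0 to 2 in null against wild-type and het against wild-type at E2.75. In null against wild-type these fits ranged from -0.040 to 0.28 for *Gata3*, -1.07 to 0.29 for *Eomes* and -0.94 to 0.23 for *Hand1*. Of 232 other values for single genes, 207 kept direction and call. The cause of these changes was not tested. Depth limits genes with few counts, such as *Gata2*, *Id2* and *Eomes*.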
